A study of Rattus norvegicus with 15 samples.

Results

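Laminin-332 is the basement membrane protein to which airway basal cells attach, and the hemidesmosome is the junction that holds them to it. The genes described are 7 components of this anchor, Lama3, Lamb3, Itga6, Itgb4, Itga3, Col17a1 and Dst, of the 21969 genes in the table. They were chosen by gene name, and 6 matched in that way. Lama3 was matched through its row's description as the laminin alpha 3 subunit, because the table names that row AABR07031193 (ENSRNOG00000011300). All 7 passed the filter on low counts and are among the 15860 genes tested. The cells were rat tracheal epithelial cells grown for weeks at an air-liquid interface, with medium below and air above, from which poly(A)-selected RNA was sequenced. One group received 10% CSE for 24 h together with 100 µM naringenin, a citrus flavanone given from 4 h beforehand, a second received 10% CSE alone for 24 h, and the control received neither. The abbreviation CSE is not expanded in the labels. Each group has 5 libraries, and no group received naringenin alone. The labels name no strain, age, animal or culture for a library, so p-values speak only of the spread among libraries, and part or all of that may be technical.

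Laminin-332 is a trimer that includes the alpha 3 and beta 3 chains, encoded by Lama3 and Lamb3, and epithelial cells secrete it into the basement membrane. Cells bind it through integrin alpha 6 beta 4 (Itga6 and Itgb4), which sits in hemidesmosomes, and through integrin alpha 3 beta 1 (Itga3 and Itgb1), which sits outside them. Collagen XVII (Col17a1) crosses the membrane beside the beta 4 integrin, and the plakins dystonin (Dst, whose epithelial product is BP230) and plectin (Plec) tie the complex to keratin filaments. In the airway these genes are known for their use by basal cells, the progenitors that touch the basement membrane.

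Each library holds between 55.1 and 60.6 M counts, where M stands for 1e+06. The libraries also fell into 3 sets that cut across the groups and that the labels do not explain. Set 1 holds CSE with naringenin replicates 3 and 4, CSE replicates 1 and 3 and control replicates 1 and 2. Set 2 holds CSE with naringenin replicates 1 and 2, CSE replicates 2 and 4 and control replicates 3 and 4, and set 3 holds replicate 5 of each group. Clustering of the counts, after removal of the group means, defined the sets, so values within sets are given as a description beside each pooled value. The labelled cell type was checked against 5 epithelial markers (Epcam, Cdh1, Krt8, Krt18 and Krt19), all of which were present. Their summed level was 3469 to 4489.6 CPM in CSE with naringenin, 3723 to 4886 CPM in CSE and 5037 to 6515 CPM in control, where CPM is counts per 1e+06 after TMM scaling. The 7 basal cell markers in the table summed to 806 to 1517 CPM in CSE with naringenin, 730.0 to 1643 CPM in CSE and 1521 to 2429.8 CPM in control. Against control, 3 of the 7 were called lower in CSE and 2 in CSE with naringenin. The 7 secretory cell markers summed to 8105 to 9507 CPM in CSE with naringenin, 7357 to 8214 CPM in CSE and 11092 to 12728 CPM in control, and 1 of 7 was called lower in each exposed group against control. The 7 ciliated cell markers in the table summed to 1379 to 1659 CPM in CSE with naringenin, 1070.3 to 1488 CPM in CSE and 1302 to 2124 CPM in control. Of these, 5 of 7 were called lower in CSE and 1 of 7 in CSE with naringenin, each against control. Beside these marker counts, 10.4% of all genes tested were called lower in CSE and 3.9% in CSE with naringenin, each against control. The secretory count in CSE is near that share. Fibroblast and smooth muscle markers, 10 in the table, summed to 38.8 to 226 CPM, 23.0 to 132 CPM and 159 to 589.99 CPM in the same order, with Pdgfrb at 0 counts in every CSE library. Summed leukocyte markers reached at most 32.7 CPM in a library and summed endothelial markers at most 3.55 CPM, and Ptprc was at 0 counts in CSE with naringenin. The 13 mitochondrial messages, a sign of RNA quality, took 7.34 to 8.97% of CPM in CSE with naringenin, 7.06 to 8.9996% in CSE and 8.21 to 8.77% in control. The epithelial and secretory sums lay below control without overlap in both exposed groups. The basal sum did so in CSE with naringenin, by a narrow margin, and the fibroblast and smooth muscle sum did so in CSE. The part of these marker levels in the results below was not tested. In bulk RNA, fewer cells of a type and less RNA per cell cannot be told apart.

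Per length of transcript, the anchor genes spanned a wide range. On the deposited FPKM scale (fragments per kilobase and 1e+06 fragments), the mean level over 15 libraries was 96.4 for Lamb3, 91.6 for Itga3, 71.2 for Lama3, 31.5 for Itgb4, 31.0 for Itga6, 5.61 for Dst and 1.98 for Col17a1. The partner genes averaged 232 FPKM for Itgb1, 118 for Cd151, a tetraspanin that binds both laminin receptors, and 36.2 for Plec. Lamb3 and Itga3 overlapped in level across libraries, with 52.9 to 155 and 59.5 to 137 FPKM, as did Itgb4 and Itga6, with 17.97 to 50.4 and 22.8 to 43.1 FPKM. Col17a1 was the lowest member in mean level and varied most, with a 25.8-fold span in CPM between its highest and lowest library, against 1.77-fold to 3.03-fold for the other members.

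Lama3, the chain that binds the receptors, was the member that fell in CSE. It stood at 797, 876, 585, 576 and 755 CPM in CSE with naringenin replicates 1 to 5, at 523, 856, 489.5, 812 and 586 CPM in CSE, and at 851, 838, 1203, 1189.7 and 1110.1 CPM in control. CSE replicates 2 and 4, both of set 2, were the highest of their group, and CSE replicate 2 lay just above the 2 lowest controls, so the groups overlapped. Within each library set, every CSE library lay below every control library. This is a description only, since the sets come from these same counts, and the share of all genes that did so is not given. Within sets 1 and 2, 28.2% and 25.9% of all genes were called in this comparison. CSE differed from control by a log2 change of -0.67 ± 0.18 (SE), a fold of 0.629, with an adjusted p of 0.0153 (edgeR). The group means were 653 ± 169 CPM in CSE and 1038 ± 181 CPM in control (SD, n = 5 each). Leaving out any 1 of the 15 libraries kept the call, with adjusted p from 0.0090 to 0.0432. For CSE with naringenin, at 718 ± 132 CPM, the log2 difference from control was -0.53 ± 0.18 (adjusted p = 0.0769), and that from CSE was 0.14 ± 0.18 (adjusted p = 0.816).

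Lamb3, the beta 3 chain, had lower means in both exposed groups but did not pass. Its CPM were 449, 558, 295, 239.9 and 416 in CSE with naringenin, 265, 538, 239, 535 and 300.0 in CSE, and 415, 458, 725, 626 and 665 in control. CSE replicates 2 and 4 again stood highest in their group, and all 3 groups overlapped. The log2 difference was -0.62 ± 0.27 for CSE against control (adjusted p = 0.117), -0.56 ± 0.27 for CSE with naringenin against control (adjusted p = 0.224), and 0.06 ± 0.27 for CSE with naringenin against CSE (adjusted p = 0.960). Both chains thus had log2 differences from control of -0.62 to -0.67 in CSE and -0.53 to -0.56 in CSE with naringenin. Of these, only that of Lama3 in CSE passed the threshold in this fit. DESeq2 also called Lama3 lower in CSE with naringenin against control (-0.55, adjusted p = 0.0265).

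**Figure D1:**
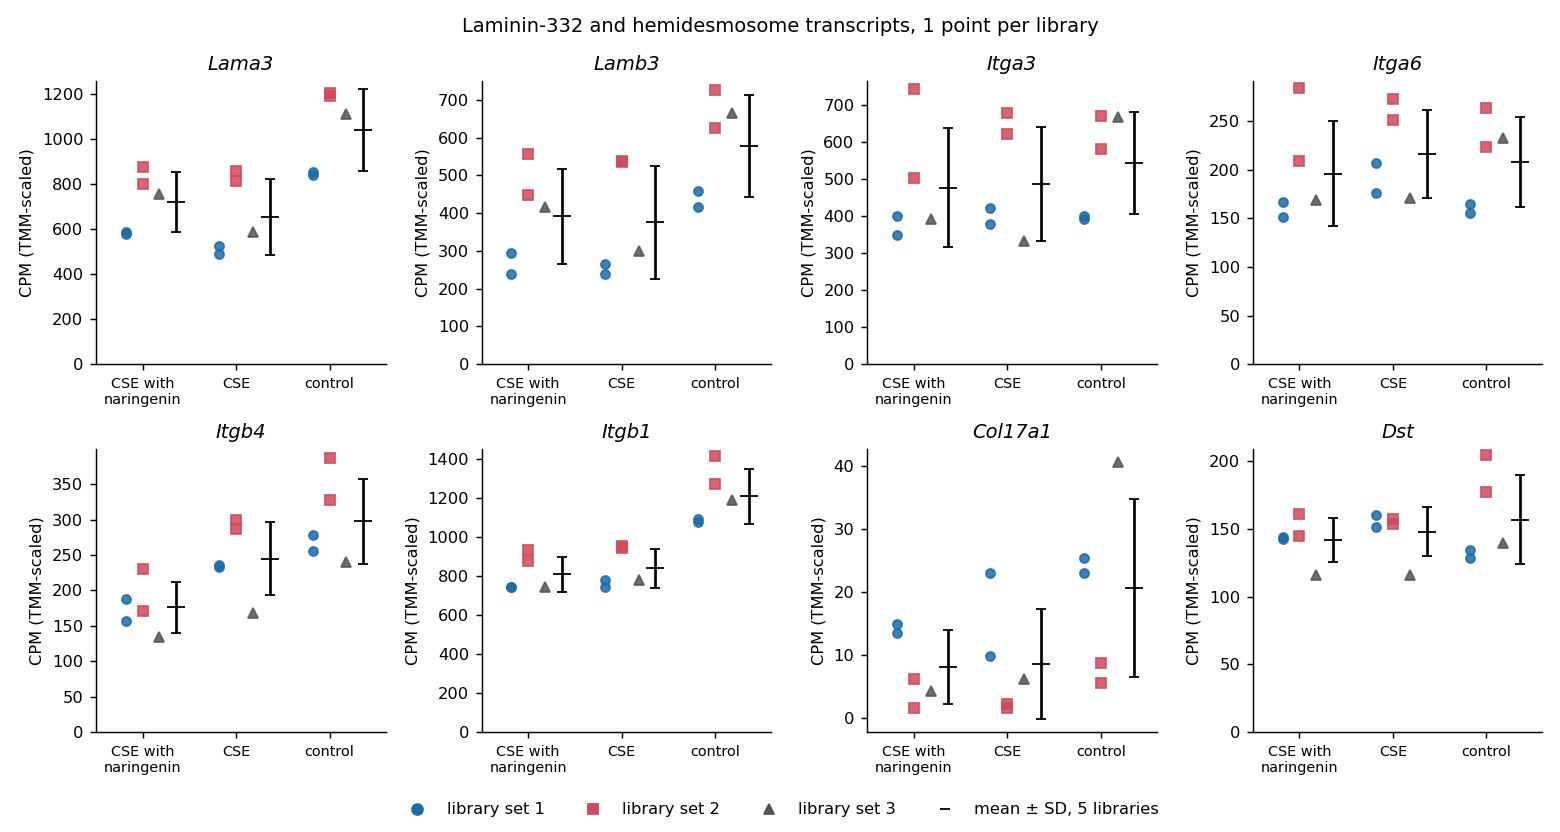
Level in CPM (counts per 1e+06, TMM-scaled, vertical axes from 0 except where an SD bar reaches below it) of the 7 members and Itgb1, 1 point per library, with groups along the horizontal axis and marker shape and colour for the library set; the black mark and bar are the mean ± SD of 5 libraries. Lama3 lies between 489.5 and 856 CPM in CSE and between 838 and 1203 CPM in control, and the lowest Col17a1 library of each group is one of set 2.

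The promoter windows of Lama3 and Lamb3 are shown because these are the 2 member chains of 1 trimer. Each holds 250 bases before and 50 after the annotated start, 5′ to 3′ on the + strand, from RefSeq (assembly GRCr8). The Lama3 window is chr18:3952517-3952816 and lies within the annotated Lama3 gene, and the Lamb3 window is chr13:107362303-107362602. Capitals mark matches to the AP-1 motif (TGANTCA, Fos and Jun factors) in Lama3 and to the cyclic AMP response element (CRE, TGACGTCA) in Lamb3.
Lama3: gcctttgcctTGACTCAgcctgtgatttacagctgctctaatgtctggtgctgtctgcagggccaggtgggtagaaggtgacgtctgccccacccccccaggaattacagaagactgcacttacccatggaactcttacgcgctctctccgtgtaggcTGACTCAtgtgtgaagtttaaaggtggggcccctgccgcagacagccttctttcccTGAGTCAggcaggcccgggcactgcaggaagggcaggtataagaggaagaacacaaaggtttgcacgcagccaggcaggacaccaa
Lamb3: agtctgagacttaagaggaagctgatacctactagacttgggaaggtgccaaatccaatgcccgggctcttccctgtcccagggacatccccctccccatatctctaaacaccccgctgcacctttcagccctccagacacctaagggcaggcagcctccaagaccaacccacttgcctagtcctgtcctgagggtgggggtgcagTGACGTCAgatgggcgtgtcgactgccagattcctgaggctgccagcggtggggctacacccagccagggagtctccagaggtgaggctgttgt
The Lama3 window has 3 AP-1 matches, which begin 240, 92 and 36 bases before the start, and 0 CRE matches. The Lamb3 window has 0 AP-1 matches and 1 CRE match, which begins 44 bases before the start. On both strands, 7.33% of 33469 promoters of the same length hold an AP-1 match and 1.83% a CRE match. The core of the xenobiotic response element (GCGTG, bound by the AhR) occurs 1 time in each of the 2 windows, as in 29.7% of all promoters. The antioxidant response element core (TGACNNNGC) occurs in 12.1% of all promoters. Lama3 has 1 such match, which overlaps its first AP-1 match, and Lamb3 has 0. The motifs are letter matches only, and no binding was measured.

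Among the receptor subunits, Itgb4 fell in CSE with naringenin. Itgb4 encodes the beta 4 subunit, whose long cytoplasmic tail recruits plectin. It stood at 172, 230.1, 187, 157 and 134 CPM in CSE with naringenin replicates 1 to 5, at 236, 287, 232, 299 and 169 CPM in CSE, and at 255, 278, 387, 327 and 239 CPM in control. The CSE with naringenin libraries all lay below the lowest control, by a narrow margin, and the CSE libraries overlapped both other groups. The means were 176 ± 35.97 CPM in CSE with naringenin, 245 ± 51.7 CPM in CSE and 297 ± 60.2 CPM in control (SD, n = 5 each). CSE with naringenin differed from control by a log2 change of -0.76 ± 0.17, a fold of 0.592 (adjusted p = 0.0159, edgeR), and the call held with any 1 of the 15 libraries left out (adjusted p from 0.0089 to 0.0427). Against CSE, the same libraries differed by -0.47 ± 0.17 (adjusted p = 0.235, unadjusted p = 0.0155), and CSE differed from control by -0.28 ± 0.17 (adjusted p = 0.269). In this fit, which has no term for the library sets, the comparison of CSE with naringenin and CSE itself did not pass for Itgb4, and it passed with the set as a block, as given with the library sets.

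Itga6, which encodes the alpha 6 subunit that pairs with beta 4, showed no such step between groups. Its CPM were 209, 284, 167, 151 and 168 in CSE with naringenin, 207, 251, 176, 273 and 171 in CSE, and 156, 165, 263, 224 and 232 in control. All 3 groups overlapped almost fully. The log2 difference was 0.05 ± 0.19 in CSE against control, -0.14 ± 0.19 in CSE with naringenin against CSE, and -0.09 ± 0.19 in CSE with naringenin against control (adjusted p = 0.878, 0.830 and 0.837 in that order, edgeR). Itga3, the alpha subunit of the receptor outside hemidesmosomes, stood at 505, 745, 400.2, 348 and 392 CPM in CSE with naringenin, 423, 622, 380.0, 679 and 333 CPM in CSE, and 394, 402, 671, 583 and 669.8 CPM in control. Its groups overlapped as well, and its log2 differences lay between -0.19 ± 0.25 and -0.03 ± 0.25, with adjusted p of 0.695 or more in the 3 comparisons.

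Itgb1, the beta 1 subunit that pairs with alpha 3 and with several other alpha chains, fell in both exposed groups. It ranged over 742 to 931 CPM in CSE with naringenin, 742 to 951 CPM in CSE and 1077 to 1415 CPM in control, so that neither exposed group overlapped the control. The log2 change was -0.53 ± 0.10 in CSE (adjusted p = 0.0026) and -0.58 ± 0.10 in CSE with naringenin (adjusted p = 0.0035), each against control. In all, 6.33% of genes tested lay wholly below control in CSE and 3.62% in CSE with naringenin. Between CSE with naringenin and CSE, Itgb1 differed by -0.05 ± 0.10 (adjusted p = 0.886).

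Col17a1 and Dst, the collagen and the plakin of the hemidesmosome, did not pass in any comparison of the fit without library sets. Col17a1 stood at 1.61, 6.24, 14.9, 13.5 and 4.21 CPM in CSE with naringenin, 23.1, 2.19, 9.76, 1.58 and 6.15 CPM in CSE, and 23.0, 25.4, 5.604, 8.65 and 40.6 CPM in control. Its lowest library held 96 counts, so counting error is small beside this spread. The lowest library of each group was one of set 2, and control replicate 5 was the highest of all. Although the means were 8.10 ± 5.84 CPM in CSE with naringenin, 8.55 ± 8.76 CPM in CSE and 20.7 ± 14.1 CPM in control (SD, n = 5 each), the log2 differences of -1.35 ± 0.74 and -1.27 ± 0.74 from control had adjusted p of 0.287 and 0.239. Dst stood at 145, 161, 143, 144 and 116 CPM in CSE with naringenin, 152, 154, 160.3, 157 and 116 CPM in CSE, and 129, 134, 205, 177 and 139.7 CPM in control. Replicate 5 was the lowest library in both exposed groups, and the control spread enclosed most of the other libraries. Dst differed by -0.15 ± 0.13 for CSE with naringenin and -0.09 ± 0.13 for CSE, each against control. The Dst row sums the products of a gene with neuronal, muscle and epithelial isoforms, and the Lama3 and Itga6 rows also sum isoforms.

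Plec, the second plakin, did not pass in any comparison of the fit without library sets. It ranged over 609.97 to 652 CPM in CSE with naringenin, 653 to 846 CPM in CSE and 649.8 to 825 CPM in control. The CSE with naringenin libraries lay just below those of CSE without overlap, as did 2.8% of genes tested, and the log2 difference of -0.25 ± 0.08 had an adjusted p of 0.171. Against control, CSE with naringenin was called lower for Plec by DESeq2 (-0.25, adjusted p = 0.0357), in the fit blocked on set (-0.23, 0.0143) and within set 2 (-0.36, 0.0024). Cd151 differed by no more than -0.15 ± 0.10 in any comparison of the fit without library sets (adjusted p of 0.380 or more). In CSE against control it was called lower within set 1 (-0.34, adjusted p = 0.0359, edgeR), and its difference within set 2 was 0.046. The sets were found in these same counts, so p-values from fits blocked on or within sets are too small.

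**Figure D2:**
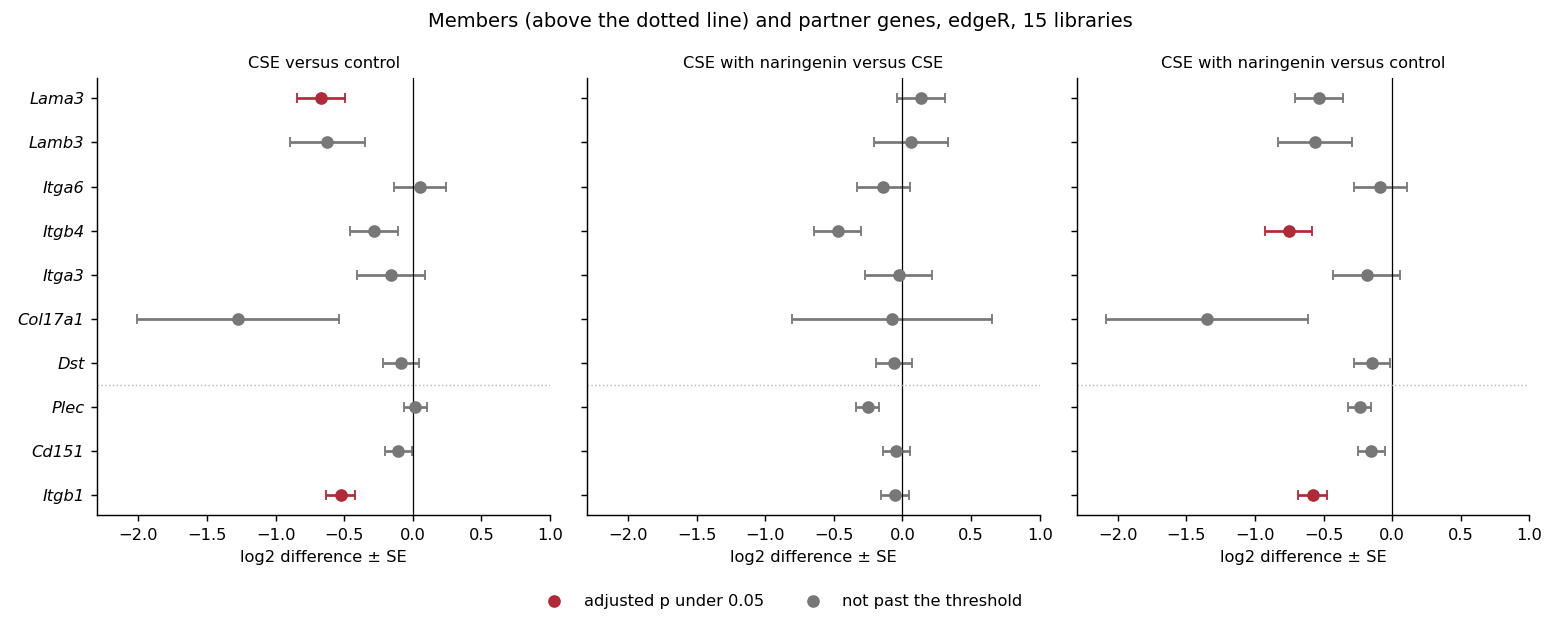
Log2 difference (horizontal axes, edgeR, 15 libraries, bars are ± SE) of the 7 members and, below the dotted line, 3 partner genes in the 3 comparisons, with red for an adjusted p under 0.05 and grey for the rest. Lama3 at -0.67 and Itgb1 at -0.53 passed for CSE against control, Itgb4 at -0.76 and Itgb1 at -0.58 passed for CSE with naringenin against control, and none of these 10 genes passed for CSE with naringenin against CSE.

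Counted together, 1 of the 7 members was called lower and 0 higher in CSE against control, where 21.2% of all genes tested were called and 10.4% were called lower. The member share is near that background. For CSE with naringenin against CSE, 0 of 7 members passed in edgeR, against 0.908% of all genes, with 1 member (Itgb4) at an unadjusted p under 0.05 and 0 called by DESeq2 or limma-voom. For CSE with naringenin against control, 1 of 7 was called lower and 0 higher, against 8.16% of all genes called and 3.9% called lower. The median log2 difference of the members was -0.28, -0.06 and -0.53 in these comparisons, while the median of all genes tested stayed within 0.0046 of 0. The comparisons share groups of libraries, so they are not independent of each other.

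Much of the spread in these genes lay between the library sets. Sets took 42.3% of the variance in log2 CPM of Lama3 and groups 54.0%, with 3.65% left within both. For Lamb3 the shares were 56.7% between sets and 33.4% between groups, for Itgb4 34.2% and 57.4%, and for Col17a1 55.1% and 25.1%. Itga6, Itga3 and Dst had 69.9%, 65.1% and 57.7% of their variance between sets and 6.65% or less between groups. Because the sets were found in these same counts, these shares were in part fixed in advance.

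Across the sets, Col17a1 moved apart from the other members. The laminin chains and the alpha integrins were highest in set 2, with mean levels of 644, 956 and 817 CPM in sets 1, 2 and 3 for Lama3, 319, 572 and 460.2 CPM for Lamb3, 391, 634 and 465 CPM for Itga3 and 170.3, 251 and 191 CPM for Itga6. Itgb4, with 224, 284 and 181 CPM, and Dst, with 144, 166 and 124 CPM, were highest there too. Col17a1 alone of the members was lowest in set 2, with 18.3, 4.31 and 17.0 CPM. The basal cell keratin Krt5 had 250.3, 57.6 and 142 CPM and the basal cell factor Tp63 had 14.5, 4.98 and 18.8 CPM, so both were also lowest in set 2. Krt15, with 625, 316 and 540 CPM, and Ngfr, with 1.85, 0.165 and 1.22 CPM, were lowest there too. The other basal cell markers went the other way and were highest in set 2. These were Krt14, a second basal keratin, with 246, 286 and 194 CPM, Krt17 with 325, 511 and 392 CPM, and Pdpn with 23.1, 48.0 and 33.7 CPM. No test is given for these set differences, since the sets come from the same counts.

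**Figure D3:**
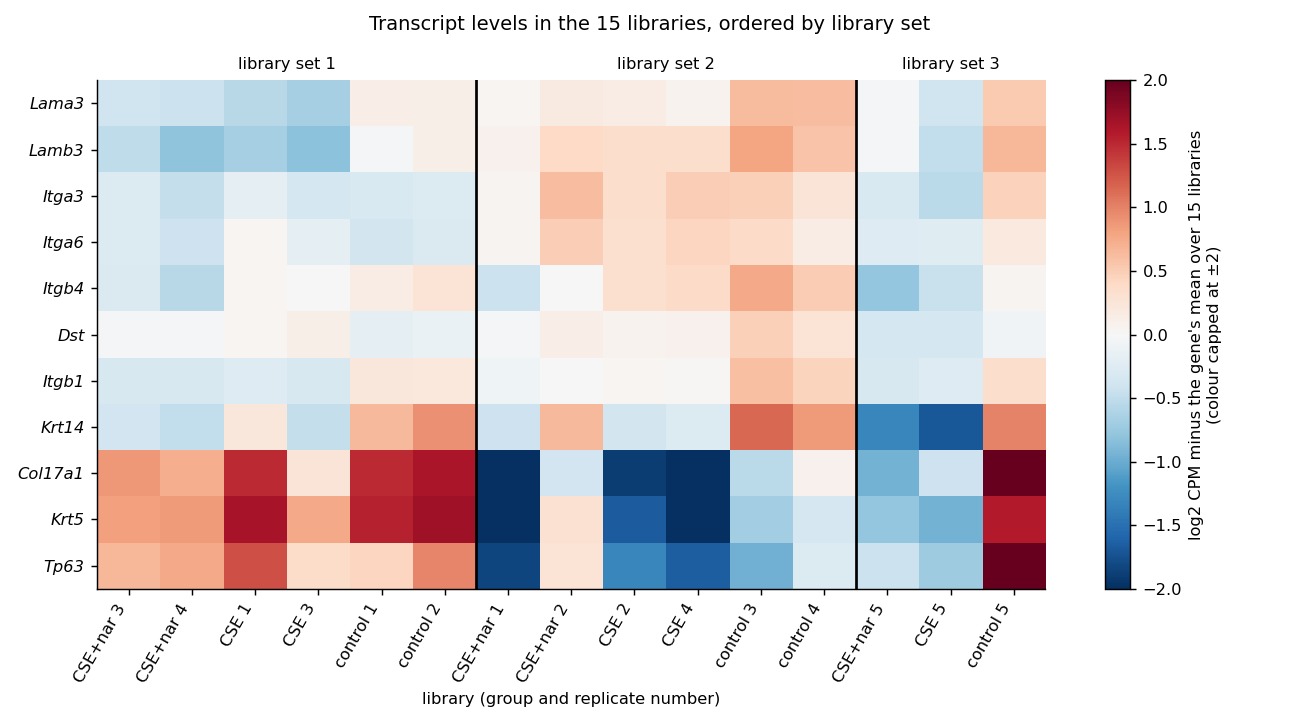
Log2 CPM of each gene minus its own mean over 15 libraries (colour, capped at ±2), with libraries along the horizontal axis ordered by library set and genes down the vertical axis. Lama3 and Lamb3 are higher in set 2 than in set 1 within each group, whereas Col17a1, Krt5 and Tp63 are lower in most set 2 libraries, with Col17a1 averaging 4.31 CPM there against 18.3 CPM in set 1.

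Within the library sets, the laminin chains differed from control in 1 direction. In CSE against control, Lama3 had log2 differences of -0.74, -0.52 and -0.92 in sets 1, 2 and 3, and Lamb3 had -0.79, -0.33 and -1.15. The same differences for CSE with naringenin against control were -0.54, -0.52 and -0.56 for Lama3, and for Lamb3 -0.71, -0.43 and -0.68. Itgb4 was lower in each set in all 3 comparisons, with -0.63, -0.83 and -0.84 for CSE with naringenin against control, -0.44, -0.54 and -0.33 for CSE with naringenin against CSE, and -0.18, -0.29 and -0.51 for CSE against control. Col17a1 had -0.56, -1.92 and -2.72 in CSE and -0.77, -0.86 and -3.27 in CSE with naringenin, each against control. Itga3 had 0.01, 0.05 and -1.01 in CSE against control, the last from set 3, which holds 1 library a group.

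With the set as a block in the fit, 4 of 7 members (Lama3, Lamb3, Itgb4 and Col17a1) were called lower in CSE against control, where 39.9% of all genes were called and 20.6% were called lower. The adjusted p were 8.45e-07, 0.000232, 0.0112 and 0.0119 in that order. The same 4 were called lower in CSE with naringenin against control, where 26.4% of all genes were called and 13.9% were called lower. Against CSE, 1 member passed, Itgb4 at -0.46 ± 0.08 (adjusted p = 0.0028), beside Plec at -0.25 ± 0.06 (adjusted p = 0.0192), where 12.7% of all genes were called. A block found in the same counts lowers the residual spread by construction, so these p-values are too small. Counts were also summed per set and group, which leaves 9 samples, and fitted with the same set as a block. That fit shares the limit of a block found in these counts, so its calls are no independent check. It called the same 4 members in CSE against control (23.8% of genes called). Lama3, Lamb3 and Itgb4 were called in CSE with naringenin against control (9.76%), and Itgb4 in CSE with naringenin against CSE (adjusted p = 0.0429, 1.07%).

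Comparisons within single sets came from 1 fit over all 15 libraries with a term for each group in each set. They thus share the estimate of a gene's spread. In set 1, 3 members were called in CSE against control, Lama3 and Lamb3 lower and Dst higher, where 28.2% of all genes were called. This fit rests on the same sets, so its p-values are too small as well. In set 2, Lama3, Col17a1 and Dst were called lower, where 25.9% of all genes were called. Lama3, Lamb3 and Itgb4 were called lower in both sets for CSE with naringenin against control, as was Dst in set 2, where 15.9% of all genes were called in set 1 and 14.2% in set 2. Against CSE, Itgb4 was called lower in set 2 (adjusted p = 0.0469) and no member was called in set 1, where 4.2% and 4.03% of all genes were called in sets 1 and 2.

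Dst was the 1 member that passed a test for a difference that changed between sets, but such a change was not particular to Dst. In CSE against control, Itga3 had 0.01, 0.05 and -1.01 and Itga6 0.26, 0.11 and -0.44 in sets 1, 2 and 3. Set 3 holds 1 library a group. For Dst the log2 difference was 0.25 in set 1 (adjusted p = 0.0303). The CSE libraries there had 152 and 160.3 CPM and the controls 129 and 134 CPM. The Dst difference was -0.30 in set 2 (adjusted p = 0.0145) and -0.27 in set 3. The sets were found in these same counts, so these p-values and that of the interaction below are too small. The interaction of group and set had an adjusted p of 0.0293 for Dst (edgeR), and 4.72% of all genes passed the same test. None of the other 6 members passed it there, and none of the 7 passed it in the other comparisons, where 2.76% of genes passed for CSE with naringenin against control and 0.0126% for CSE with naringenin against CSE.

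**Figure D4:**
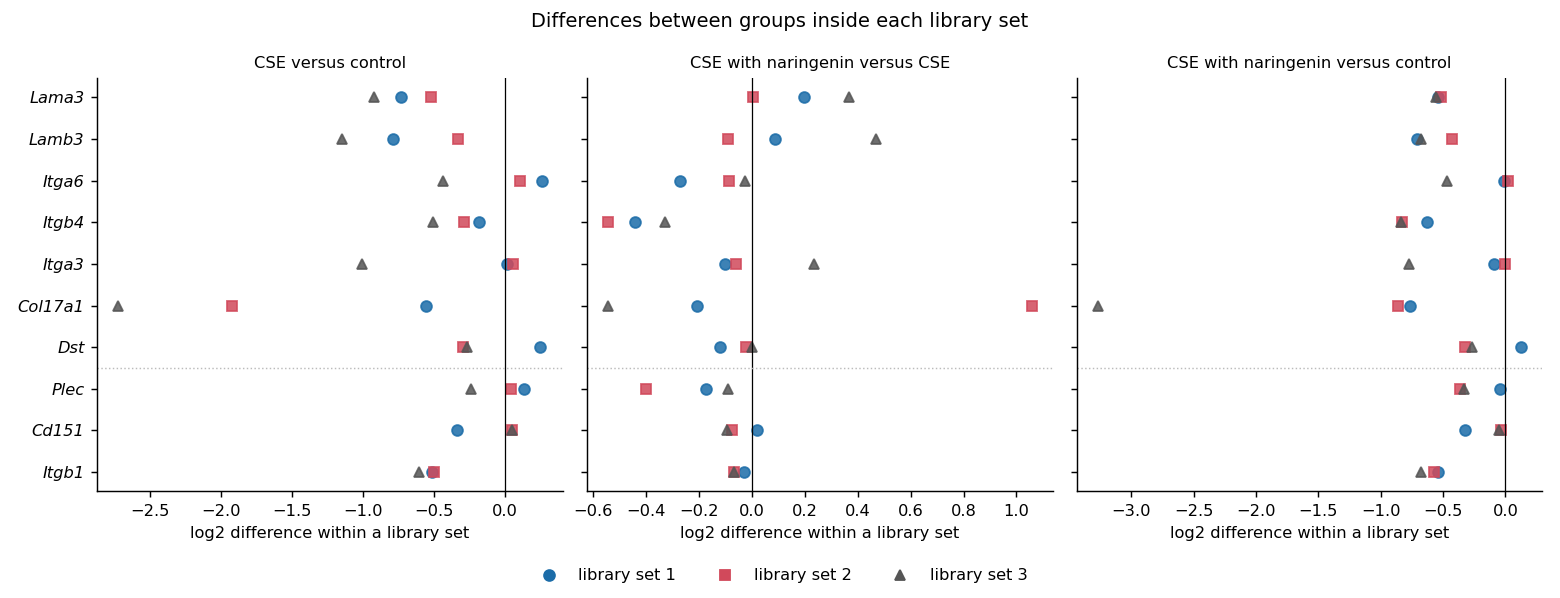
Log2 difference between groups computed inside each library set (horizontal axes, 1 marker per set, sets 1 and 2 with 2 libraries a group and set 3 with 1) for the 7 members and, below the dotted line, 3 partner genes. The laminin chains lie left of 0 in all sets in both comparisons with control, Itgb4 lies left of 0 in all sets of all 3 comparisons, and Dst in CSE against control lies on both sides, from -0.30 to 0.25.

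Ratios between members within a library, on the FPKM scale, are free of library scaling. The Lama3 to Lamb3 ratio, the balance of 2 chains of 1 trimer, averaged 0.787 ± 0.129 in CSE with naringenin, 0.749 ± 0.1002 in CSE and 0.750 ± 0.0675 in control (SD, n = 5 each). It differed by less than its spread in each comparison, with p of 0.905 for CSE against control, 0.619 for CSE with naringenin against CSE and 0.659 for CSE with naringenin against control (two-sided exact permutation tests). The Itgb4 to Itga6 ratio, the balance of the 2 subunits of the hemidesmosome integrin, was 0.721, 0.712, 0.990, 0.914 and 0.701 in CSE with naringenin, 1.003, 1.003, 1.16, 0.963 and 0.865 in CSE, and 1.44, 1.48, 1.29, 1.29 and 0.906 in control. Control replicate 5 was the 1 control library that overlapped the other groups. CSE with naringenin differed from control by -0.66 on the log2 scale (exact permutation p = 0.0238), CSE from control by -0.34 (p = 0.0397) and CSE with naringenin from CSE by -0.32 (p = 0.0556). After adjustment over the 12 ratio tests these were 0.159, 0.159 and 0.167, so none passed. The smallest p the design allows is 0.0079. A single ratio at that p could not pass on its own after adjustment over 12 tests, so not passing says little here. Without 1 library, the p for CSE against control lay between 0.0159 and 0.0873. Inside each library set the ratio was lower in CSE with naringenin than in control, by -0.62, -0.85 and -0.37.

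The ratio of the receptor alpha chains, Itga3 to Itga6, averaged 2.93 ± 0.153 in CSE with naringenin, 2.70 ± 0.304 in CSE and 3.16 ± 0.205 in control (SD, n = 5 each). Its largest difference, -0.23 for CSE against control, had an exact permutation p of 0.0317 and an adjusted p of 0.159. The Col17a1 to Itgb4 ratio averaged 0.0571 ± 0.0416, 0.0462 ± 0.0455 and 0.0959 ± 0.0760 in CSE with naringenin, CSE and control, with adjusted p of 0.408 or more.

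**Figure D5:**
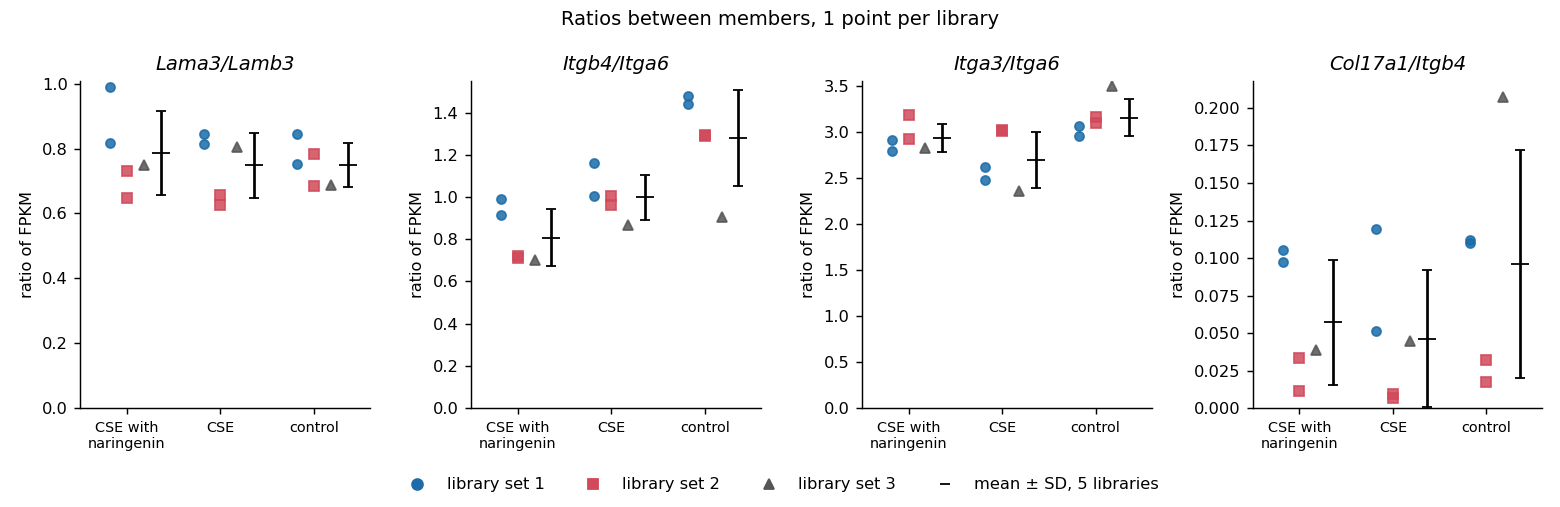
Ratio of FPKM between 2 members in each library (vertical axes from 0), with groups along the horizontal axis, marker shape and colour for the library set, and black marks for the mean ± SD of 5 libraries. The Lama3 to Lamb3 ratio is close to 0.75 in CSE and control, and the Itgb4 to Itga6 ratio averages 0.808 in CSE with naringenin, 0.999 in CSE and 1.28 in control.

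The wider basement membrane and integrin genes were described from lists chosen with earlier results of these data known. Of 8 other laminin chains, 6 were tested, and 4 fell and 0 rose in CSE against control, where 10.4% of all genes fell. These were Lama4 at -2.69 ± 0.42 (adjusted p = 0.00053), Lama2 at -0.88 ± 0.24 (0.0196), Lamb1 at -0.75 ± 0.25 (0.0398) and Lamb2 at -0.31 ± 0.09 (0.0174), all chains of laminins that stromal or vascular cells also make. Their median log2 difference was -0.68. In CSE with naringenin against control 1 of 6 fell, where 3.9% of all genes fell, namely Lama4 at -1.63 ± 0.40 (adjusted p = 0.0204), and against CSE 0 of 6 passed. Of the 15 fits that each left out 1 library, Lamb1 passed in 9 (highest adjusted p = 0.0989, without control replicate 3), Lamb2 in 14 (0.0514, without CSE replicate 3) and Lama4 in CSE with naringenin in 13 (0.0575, without CSE with naringenin replicate 1).

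Of 15 other basement membrane and anchoring genes tested, 8 fell and 0 rose in CSE against control, with a median of -1.84, beside 10.4% of all genes that fell. They include the collagen IV chains Col4a3 at -3.45 ± 0.54 (adjusted p = 0.00056), Col4a6 at -2.98 ± 0.95 (0.0359) and Col4a4 at -2.96 ± 0.61 (0.0036), and Sparc, a secreted matrix glycoprotein, at -2.36 ± 0.62 (0.0151). Against control, 3 fell in CSE with naringenin, beside 3.9% of all genes, Col4a3 at -1.77 ± 0.50 (0.0424), Fras1 at -1.48 ± 0.38 (0.0270) and Col18a1 at -1.08 ± 0.23 (0.0114). With 1 library left out, Col4a6 in CSE passed in 9 of 15 fits (highest adjusted p = 0.0914, without control replicate 5), Col4a3 in CSE with naringenin in 6 (0.102, without control replicate 5) and Fras1 in 9 (0.0703, without CSE with naringenin replicate 1). The fibroblast and smooth muscle markers given above, 23.0 to 132 CPM in CSE and 159 to 589.99 CPM in control, moved with these genes, and their part was not tested. Between CSE with naringenin and CSE 0 of 15 passed.

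Of 11 other integrin subunits tested, 6 fell and 0 rose in CSE against control, beside 10.4% of all genes that fell. Among the 6, the largest differences were those of Itga2 at -1.46 ± 0.21 (adjusted p = 0.00029), Itgb6 at -1.22 ± 0.27 (0.0057), Itga1 at -1.08 ± 0.35 (0.0372) and Itga5 at -1.06 ± 0.26 (0.0111), which encode subunits of collagen, TGF-beta latency peptide and fibronectin receptors. Itgb3, at -1.95 ± 0.68, did not pass (adjusted p = 0.0542). Itga1 passed in 9 of 15 fits with 1 library left out (highest adjusted p = 0.0822, without control replicate 2). For CSE with naringenin against control Itgb5 alone of the 11 fell, beside 3.9% of all genes, at -0.32 ± 0.08 (0.0285), and it passed in 9 of 15 fits with 1 library left out (highest 0.0753, without CSE with naringenin replicate 3). The laminin-binding alpha chains Itga3 and Itga6 differed from control by -0.16 and 0.05 in CSE.

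Of 12 basal cell genes tested, 6 fell and 0 rose in CSE against control, beside 10.4% of all genes that fell, among them Dsc3 at -2.21 ± 0.66 (adjusted p = 0.0276), Pdpn at -1.49 ± 0.37 (0.0101), Krt14 at -1.32 ± 0.33 (0.0107) and Snai2 at -1.12 ± 0.34 (0.0317). With naringenin added, 4 fell against control, beside 3.9% of all genes, Snai2 at -1.30 ± 0.35 (0.0330), Krt14 at -1.18 ± 0.33 (0.0389), Krt17 at -1.13 ± 0.26 (0.0152) and Dsg3 at -0.97 ± 0.19 (0.0056), and against CSE 0 passed. With 1 library left out, Dsc3 in CSE passed in 13 of 15 fits (highest adjusted p = 0.0590, without CSE replicate 3) and Snai2 in 9 (0.0727, without control replicate 2). In CSE with naringenin, Krt14 passed in 5 (0.0877, without CSE with naringenin replicate 1) and Snai2 in 10 (0.0724, without CSE with naringenin replicate 4). Krt5, whose levels were near those of Col17a1 in pattern, differed from control by -0.86 ± 0.75 in CSE and -0.92 ± 0.76 in CSE with naringenin, and did not pass.

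Blocked on set, CSE with naringenin against CSE had 1 of the 6 other laminin chains and 5 of the 15 basement membrane genes called higher. So were 5 of the 11 other integrins and 0 of the 12 basal cell genes, and none of these genes was called lower. In this fit 12.7% of all genes were called in either direction, and the share called higher is not given. The block was found in these same counts, so these p-values are too small. Without the block 0 genes of these lists passed in this comparison.

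Likeness of pattern was measured as the root mean square difference between 2 genes' log2 CPM, each centred on its own mean over the 15 libraries, so a smaller value is more alike. For Lama3 the closest genes were Tspan8 at 0.0957, Pdlim5 at 0.108 and AABR07021544 at 0.109, and Lamb3 ranked 33 among the genes tested. Tnfrsf12a at 0.145 and Rusc2 at 0.150 were among the 3 genes closest to Lamb3. Itga6 lay closest to Cdk6 at 0.0868, Tpcn2 at 0.0976 and Tjp1 at 0.0984. Myo10 at 0.125 and Fez2 at 0.129 were among the 3 genes closest to Itga3. The alpha chains Itga3 and Itga6 were 0.140 apart, where Itga6 ranked 8 for Itga3. Itgb4 lay closest to Serpinb8 at 0.153, Prrg4 at 0.171 and Arhgdib at 0.173, and ranked Itga6, its partner subunit, 573. Col17a1 had looser neighbours, Serpinb10 at 0.256, LOC100359539 at 0.349 and Krt5 at 0.354. Dst lay closest to Ptpn21 at 0.0919, Pacs2 at 0.0934 and Otud7b at 0.0951. These values are a description over 15 libraries that share the sets and groups above.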

How the data were processed

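The deposited table gives, per gene and library, counts that the authors left unnormalized and FPKM values that the authors computed. Per the submitters' processing notes, which give neither roles nor order, the tools were HISAT2 2.0.4, cutadapt 1.9, UMI-tools, StringTie 1.3.4d, edgeR and DESeq2. The genome build of the table, the merging of molecular identifiers and the use of strand are not given in the sources used here. Gene-level counts sum isoforms, and antisense or near-identical genes are uncertain.

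From the deposited counts, 15860 genes passed edgeR's filterByExpr and entered 1 quasi-likelihood fit over all 15 libraries with TMM scaling and group as the only term (F test, edgeR 4.0.16, R 4.3.3). Adjustment was by Benjamini-Hochberg, with a call at an adjusted p under 0.05. Unless another test is named, p-values are from this fit, and differences are log2 of the group named first over the second. CPM were computed from the counts. Ratios used the deposited FPKM and two-sided exact permutation tests over 252 regroupings, adjusted over 12 tests. Library totals of 55.1 to 60.6 M counts make counting error small. The fit was tested on simulated data. In pairs of replicates, the median chi-square per gene was 2.77 to 5.71 within a library set and 7.42 to 20.9 otherwise, against 0.455 from sampling alone, so none was taken as a repeat deposit.

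The members and lists were chosen with earlier results of these data known. Named genes are the members, the partner genes, up to 4 called genes per list and comparison by size of change, and the 3 genes closest in pattern to each member. Alternatives were DESeq2 1.42.0, limma 3.58.1 (voom, and log2 FPKM plus 0.1 or 1), RLE scaling, no filter, 2 groups only, replicate or library set blocks, single sets, and each library left out. The sums per set and the interaction of group and set were added after the data were seen. Genes among the partners and the closest in pattern that are not named here are not reported. Listed genes that did not match a symbol, such as Hspg2 and Itga8, were not analysed here.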

Additional observations from a re-analysis of the deposited data

Results flagged for a closer look

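Dst in CSE was singled out by its lowest library, replicate 5, at 116 CPM, while the other 4 CSE libraries lay between 152 and 160.3 CPM. The gap is larger than Dixon's 95% limit for 5 samples (0.71 of the range). Of 42 groups of 5 libraries checked this was the 1 that passed, and chance passes about 1 in 20. Replicate 5 of CSE with naringenin stood at 116 CPM as well, and control replicate 5 at 139.7 CPM. With CSE replicate 5 left out, Dst still did not pass against control.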

How the results depend on the processing

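Lama3 and Itgb1 stayed called lower in CSE against control, and Itgb4 and Itgb1 in CSE with naringenin against control, under each alternative run, including each library left out.

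The count of genes called in CSE against control was 3363, 6325 with the set block and 2585 to 3501 with 1 library left out, and members called were 1, 4 with the set block, 4 with summed counts and 3 within set 1 (2 lower, Dst higher) and within set 2 (3 lower, Dst among them). Between CSE with naringenin and CSE the genes called were 144, 602 with DESeq2, 76 with log2(FPKM + 0.1), 78 without a filter, 2015 with the set block, 666 within set 1, 639 within set 2 and 36 to 362 with 1 library left out, and members called were 0, and 1 with the set block, with summed counts and within set 2. Between CSE with naringenin and control the genes called were 1294, 833 with 2 groups only, 2052 with DESeq2, 4192 with the set block, 2524 and 2247 within sets 1 and 2 and 755 to 1409 with 1 library left out, and members called were 1, 2 with DESeq2, 4 with the set block, 3 with summed counts, 3 within set 1 and 4 within set 2. The cause was not tested.

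Some differences changed sign, and Dst in CSE against control passed on both sides, called higher within set 1 and lower within set 2. In CSE against control these were, with summed counts, Itga6 (-0.024) and Plec (-0.022), within set 1 Itga3 (0.014) and Dst (0.25), and within set 2 Itga3 (0.053) and Cd151 (0.046). For CSE with naringenin against CSE, Col17a1 was 0.13 and 0.032 with FPKM plus 0.1 and 1, 0.14 with voom, 0.21 with the set block, 0.13 with summed counts and 1.06 within set 2, Itga3 was 0.0001 with summed counts, Cd151 0.018 within set 1, and Lamb3 -0.092 within set 2. Dst in CSE with naringenin against control was 0.13 within set 1 and Itga6 0.019 within set 2. With 1 library left out, in CSE against control Dst ranged over -0.15 to 0.026, Itga6 over -0.0495 to 0.15 and Plec over -0.033 to 0.063. The ranges for CSE with naringenin against CSE were -0.085 to 0.012 for Cd151, -0.42 to 0.72 for Col17a1, -0.14 to 0.0009 for Dst, -0.25 to 0.12 for Itga3 and -0.10 to 0.23 for Lamb3, and in CSE with naringenin against control -0.26 to 0.0085 for Itga6. The Lama3 to Lamb3 ratio ranged over -0.055 to 0.053, -0.019 to 0.13 and -0.028 to 0.13 in CSE against control, CSE with naringenin against CSE and CSE with naringenin against control.

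Replicate numbers did not pair the libraries: 7 of 15 same-numbered pairs had a correlation of deviations over 0.1 (range -0.394 to 0.386), and 5 of 15 libraries correlated best with their own number. With the replicate block, 3492, 300 and 1450 genes were called in CSE against control, CSE with naringenin against CSE and CSE with naringenin against control, members called stayed at 1, 0 and 1, and Col17a1 in CSE with naringenin against CSE was 0.38.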

Other observations

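Genes that act on or around the anchor were also counted, from lists chosen with earlier results known. Of 9 tested proteases that process laminin-332 or shed collagen XVII, 3 fell and 0 rose in CSE against control (21.2% of all genes called, 10.4% lower). These were Plau, the urokinase plasminogen activator, at -1.52 ± 0.48 (adjusted p = 0.0363), the membrane metalloproteinase Mmp14 at -1.17 ± 0.34 (0.0236) and the sheddase Adam9 at -0.44 ± 0.13 (0.0279). Of the 15 fits that each left out 1 library, Plau passed in 9 (highest adjusted p = 0.0867) and Mmp14 in 12 (0.0615), both highest without CSE replicate 3, and Adam9 passed in 10 (0.0729, without control replicate 4). For CSE with naringenin, 0 of 9 passed against CSE or against control. With the library set as a block, 4 were called lower in CSE and 5 in CSE with naringenin against control (20.6% and 13.9% of all genes). In the same fit, 1 was called lower in CSE with naringenin against CSE (12.7% of all genes called in either direction).

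Of 19 focal adhesion and integrin adaptor genes, 7 fell and 0 rose in CSE against control, where 10.4% of all genes fell. Among the 7, the largest differences were those of Lims2 at -1.55 ± 0.40 (adjusted p = 0.0133), Zyx at -0.64 ± 0.21 (0.0415), Tln1, the integrin activator talin, at -0.53 ± 0.17 (0.0371) and Parva at -0.45 ± 0.15 (0.0426). Tns1, at -1.69 ± 0.58, did not pass (0.0503). Lower in CSE with naringenin against control were Lims2 at -1.82 ± 0.41 (0.0132), Fermt2 at -0.38 ± 0.11 (0.0389) and Vcl at -0.27 ± 0.08 (0.0470), where 3.9% of all genes fell, and against CSE 0 of 19 passed. With the library set as a block, 13 were called lower in CSE and 12 in CSE with naringenin against control (20.6% and 13.9% of all genes), and 3 higher and 3 lower in CSE with naringenin against CSE (12.7% of all genes called). Without the block, Lims2 kept its call with any 1 library left out in both comparisons. The others passed in 6 of 15 such fits for Zyx, 9 for Tln1, 8 for Parva, 6 for Fermt2 and 3 for Vcl. Their highest adjusted p were 0.0979 for Zyx and 0.0906 for Tln1 without CSE replicate 3, 0.108 for Parva without control replicate 3, and 0.101 for Fermt2 and 0.107 for Vcl without CSE with naringenin replicate 3.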
